A study of Mus musculus with 21 samples.

Results

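The genes named MetCAT encode cytosolic tRNA Met, whose anticodon CAT (CAU in the RNA) reads the methionine codon AUG. They were chosen by name, and 26 of the 3283 predicted mouse tRNA genes in the Pol III occupancy counts carry it. In the tRNA-seq counts, 14 of 1143 genes were MetCAT genes. Vertebrates use tRNA Met in a pair of forms. The initiator carries methionine to the start codon in the P site of the ribosome, and the elongator inserts methionine within the growing chain. NSun2 is an RNA methyltransferase that places 5-methylcytosine (m5C) in tRNAs, mostly at the junction of the variable loop and the TΨC arm, and its loss is known for the appearance of tRNA fragments in skin.

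The study compared back skin of WT males with that of NSun2 -/- males, which carry a gene-trap allele (German Gene Trap Consortium clone D014D11) on a C57Bl6/J CBA F1 background. WT males came from the same breedings, and all mice were at postnatal day 25, when hair follicles enter the growth phase. RNA bisulphite sequencing and tRNA-seq each had 4 libraries per genotype. Pol III ChIP-seq, with an antibody against POLR3A, had 2 WT libraries and 1 NSun2 -/- library, with 1 input library per genotype, each from a pool of 3 mice. The deposited title of WT Pol III replicate 1 reads PolII, though its antibody label names POLR3A, and the titles of the NSun2 -/- Pol III and input libraries read KD, though their genotype label is NSun2 -/-. What these 3 libraries hold was taken from the antibody and genotype labels.

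Genotype labels were read from the bisulphite libraries, which list cytosines covered by at least 10 reads in any RNA. Exons of Nsun2 had 31, 23, 48 and 43 listed cytosines in the 4 WT libraries and 0 in each of the 4 NSun2 -/- libraries. The groups do not overlap and follow their labels. The keratinocyte gene Krt14 had between 234 and 362 listed cytosines per library and the fibroblast collagen gene Col1a1 between 1374 and 1721. The sum over Krt5, Krt14 and Krt10 was 800, 706, 894 and 826 in WT and 1031, 709, 1088 and 993 in NSun2 -/- skin. For Col1a1, Col1a2 and Col3a1 it was 3895, 3887, 3640 and 3565 in WT and 4513, 3540, 4404 and 4369 in NSun2 -/- skin. In both sums NSun2 -/- replicates 1, 3 and 4 were above every WT library, and replicate 2 was not. Skeletal muscle was also present. The muscle actin gene Acta1 had 269, 306, 337 and 314 listed cytosines in WT and 386, 382, 406 and 403 in NSun2 -/- skin. With Ckm, the other muscle gene of the list, whose own values overlap between genotypes, the sum was 600, 693, 636 and 530 in WT and 789, 721, 812 and 780 in NSun2 -/- skin. Acta1 and the muscle sum were thus higher in every NSun2 -/- library than in any WT library. This includes replicate 2, which had the fewest listed cytosines of all libraries (110324). In NSun2 -/- replicates 1, 3 and 4 the totals were 665049, 658169 and 385574, against 176613, 156018, 196679 and 187471 in WT. Marker values were not scaled to these totals. The part of muscle and of these totals in the results below was not tested. Of the haemoglobin genes, Hbb-b1 had at most 25 listed cytosines and Hba-a1 had 0 in every library, but these genes have near-identical copies and the aligner keeps unique best matches, so blood content cannot be read from these values. Whole skin mixes these cells, so fewer cells of a type and less RNA per cell cannot be told apart.

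The gene sequence divided both forms. An initiator gene has A1 and T72 at the ends of the acceptor stem, GGG and CCC around the anticodon loop, and A54 as the first base of the TΨC loop. An elongator gene has none of these. Positions follow the usual tRNA numbering from the 5′ end, in which the 72 nt initiator lacks position 17. Of the 26 genes, 19 could be located in mm9: 9 were initiator genes, 8 were elongator genes and 2 fell in neither class. The sequences of the other 7 were not analysed here. The sequence shared by most initiator genes is shown, with the bases that the division used in capitals.

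chr3.trna792-MetCAT, initiator, chr3:90279782-90279853, minus strand: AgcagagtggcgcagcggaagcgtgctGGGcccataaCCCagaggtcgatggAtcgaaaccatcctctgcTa

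The initiator genes were nearly uniform. Of 9 genes, 7 shared the sequence of chr3.trna792-MetCAT, and the other 2 differed from it by 1 base each, G52A in chr13.trna82-MetCAT and G24A in chr15.trna876-MetCAT. The elongator genes held 6 distinct sequences among 8 genes.

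Of the 19 located genes, 11 lay on chromosome 13 within 2.36 Mb, between positions 21259473 and 23622288, in a region that also holds histone genes. They were 7 initiator and 4 elongator genes. None of the 19 overlapped an annotated exon, and 3 lay within a gene. These were chr13.trna947-MetCAT in the lincRNA gene Gm11335, chr13.trna99-MetCAT in the processed transcript 4930586N03Rik, and chr8.trna783-MetCAT in the protein-coding gene Gm20388. Outside the cluster, chr3.trna792-MetCAT lay 270 bp from Ilf2, and chr15.trna913-MetCAT lay 5915 bp from Wdr67.

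Pol III occupancy asks which of these copies are transcribed in skin. Loci held 36866 and 63136 counts in the WT libraries, 95112 in the NSun2 -/- library, and 15918 and 14483 in the WT and NSun2 -/- inputs. The rule for a bound gene asked for 10 or more reads in each WT library and for 2-fold or more of the WT input in CPM, the count divided by the library's total and set to a common scale. By this rule 12 of the 26 MetCAT genes were bound, against 6.88% of all predicted genes. They were 7 initiator and 5 elongator genes. MetCAT genes held 4.93% and 4.65% of WT counts and 5.72% of NSun2 -/- counts, against 0.810% and 0.670% in the inputs.

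The initiator gene chr3.trna792-MetCAT had 8734 and 8220 CPM in the WT libraries and 11418 in the NSun2 -/- library. It ranked 3rd of all predicted genes by its WT mean. The elongator gene chr15.trna913-MetCAT followed at rank 17, with 6239 and 6494 in WT and 7801 in NSun2 -/- skin. The initiator genes chr13.trna90-MetCAT (6754 and 5227, then 5867 in NSun2 -/- skin) and chr13.trna78-MetCAT (5100 and 5924, then 7265) ranked 20 and 28. The NSun2 -/- library was above both WT libraries at 3 of these 4 genes and between them at chr13.trna90-MetCAT. At the initiator gene chr13.trna111-MetCAT the values were 5696 and 3421 in WT and 4426 in NSun2 -/- skin. At the initiator gene chr13.trna947-MetCAT they were 4883 and 3279 in WT and 4836 in NSun2 -/- skin. The elongator gene chr13.trna999-MetCAT had 4259 and 3041 in WT and 3102 in NSun2 -/- skin. The NSun2 -/- value lay between both WT values at these 3 genes. All 7 genes stood above the WT median of 2879 CPM over the 226 bound genes.

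Another 4 bound genes were below that median. The initiator genes chr13.trna983-MetCAT (977 and 1156 in WT, 1209 in NSun2 -/- skin) and chr13.trna108-MetCAT (1004 and 839, then 1293) share the sequence of the strongly occupied copies. The elongator genes chr13.trna994-MetCAT (949 and 839, then 852) and chr13.trna99-MetCAT (271 and 348, then 284) were among the lowest. At chr13.trna99-MetCAT the WT input had no reads, and the NSun2 -/- input had 414 CPM, more than the NSun2 -/- Pol III library. The nearest gene outside the rule was chr13.trna61-MetCAT, with 353 and 903 CPM in WT, which falls just below 2-fold of the input. The initiator genes with a changed base, chr13.trna82-MetCAT (380 and 570) and chr15.trna876-MetCAT (27.1 and 491), were not bound. Reads that match several copies were distributed by the authors, so values of copies with 1 sequence are not independent.

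One bound MetCAT gene was at least 1.5-fold higher in the NSun2 -/- library than in the WT mean, against 3.54% of the bound genes, and 0 were 1.5-fold lower, against 3.98%. It was the elongator gene chr8.trna783-MetCAT, with 2658 and 5148 CPM in WT and 6287 in NSun2 -/- skin. The fold was 1.61 between genotypes and 1.94 between both WT libraries. The median log2 change of the 12 genes was 0.21, from -0.23 to 0.69, beside 0.17 over all bound genes. Since NSun2 -/- skin had 1 library, these differences were not tested.

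Summed over the bound genes, the initiator took 33147 and 28066 CPM in the WT libraries and 36315 in the NSun2 -/- library. The elongator took 14376 and 15870 in WT and 18326 in NSun2 -/- skin. The initiator therefore led in every Pol III library, by 2.31-fold (95% interval 2.08 to 2.56) and 1.77-fold (1.64 to 1.91) in WT and 1.98-fold (1.87 to 2.10) in NSun2 -/- skin. These intervals, like all binomial and Poisson intervals given here, cover counting error only. In the inputs the same ratio was 0.833 and 1.00. The log2 ratio of the NSun2 -/- library fell between those of both WT libraries, which differed by 0.38, and its distance from their mean was -0.03.

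**Figure D1:**
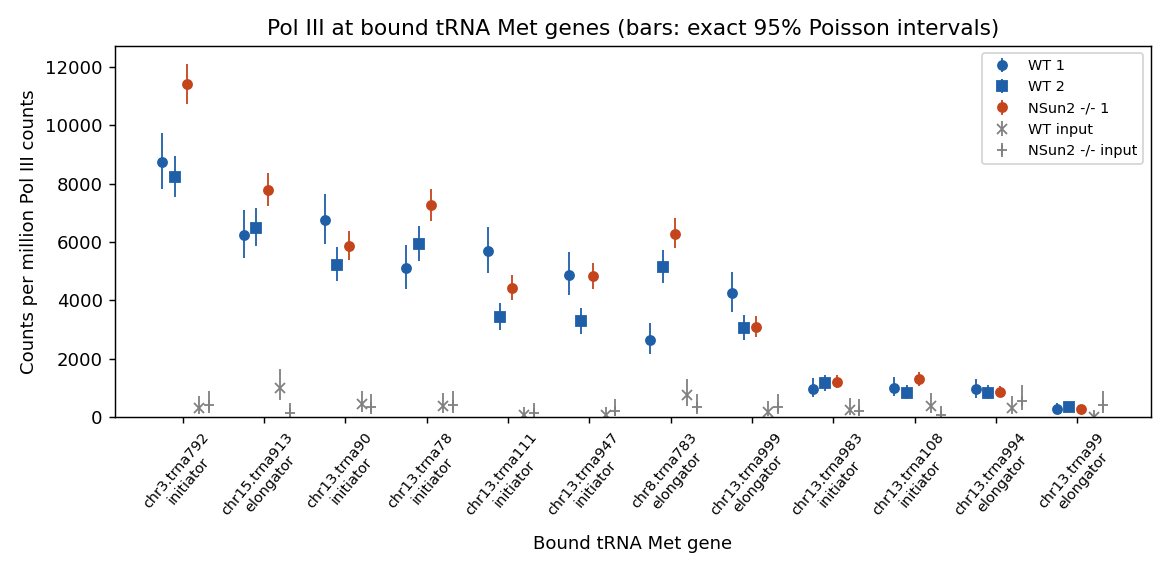
Pol III ChIP-seq signal in CPM at the 12 bound MetCAT genes, with 1 point per library and bars for exact 95% Poisson intervals of the counts. chr3.trna792-MetCAT was highest, at 8734 and 8220 in WT and 11418 in the NSun2 -/- library, and the inputs reach at most 1005.

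RNA bisulphite sequencing measures m5C as cytosines that remain unconverted. The percent of unconverted reads is given at each cytosine with at least 10 reads. The cytosines of MetCAT genes are listed at 211 positions, and 123 reached 10 reads in 3 or more libraries of both genotypes, which the test required. Of these, 115 lay in 6 initiator genes and 8 in chr12.trna357-MetCAT, a gene of neither class, so that no elongator cytosine entered the test. The initiator holds C48 followed by G49. Its positions 39 to 65 are shown with 48 and 49 in capitals.

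chr3.trna792-MetCAT, chr3:90279790-90279816: cccagaggtCGatggatcgaaaccatc

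C48 was the methylated cytosine of the initiator in WT skin. Pooled over the initiator genes, 99.0%, 98.2%, 98.7% and 97.9% of reads were unconverted at C48 in the 4 WT libraries, from between 384 and 1544 reads. In the NSun2 -/- libraries they were 17.4% (Wilson 95% interval 15.5 to 19.5), 19.5% (14.8 to 25.4), 40.4% (38.4 to 42.3) and 23.0% (20.7 to 25.5). The groups did not overlap, and in this pool replicate 3 was the highest of the NSun2 -/- libraries, above the intervals of the other 3. Of its 2379 reads, 1491 were listed under chr13.trna947-MetCAT.

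Across the series, 180 of 122736 tested cytosines were lower in NSun2 -/- skin by at least 10 percentage points at an adjusted p under 0.05 in edgeR's quasi-likelihood test. Among the tested MetCAT cytosines 6 of 123 were lower, against 0.147% of all, and these were the 6 tested C48. The cytosine of chr13.trna947-MetCAT, with between 121 and 1491 reads per library, was at 99.7%, 99.1%, 99.3% and 98.9% in WT and at 16.4%, 9.92%, 44.9% and 21.2% in NSun2 -/- skin. It fell from a mean of 99.3% ± 0.361 to 23.1% ± 15.2 (SD, n = 4 each, edgeR adjusted p = 2.29e-22), lower in 4 of 4 NSun2 -/- libraries than in any WT library. Replicate 3 was again the highest of the NSun2 -/- libraries at this gene.

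The strongly occupied chr3.trna792-MetCAT had 98.5%, 100%, 97.6% and 96.6% at C48 in WT, and 20.4%, 28.6%, 41.1% and 35.9% in NSun2 -/- skin, again without overlap. Its mean fell from 98.2% to 31.5% (edgeR adjusted p = 3.66e-09). The smallest loss, from 98.1% to 35.4%, was at chr13.trna78-MetCAT (edgeR adjusted p = 5.68e-10), and the largest, from 92.7% to 16.2%, at chr13.trna90-MetCAT (edgeR adjusted p = 2.03e-06). chr13.trna983-MetCAT went from 99.1% to 23.6% (edgeR adjusted p = 2.36e-14) and chr13.trna108-MetCAT from 95.5% to 24.2% (edgeR adjusted p = 5.14e-08). In all 6 genes every measured NSun2 -/- library was below every WT library. Replicate 3 was not the highest NSun2 -/- library at each of them. At chr13.trna90-MetCAT it was the lowest, at 10.7% beside 18.5% and 19.4% in replicates 1 and 4, and at chr13.trna983-MetCAT it was at 25.3%, below replicate 2 (26.9%). The genes share 1 sequence, so they are not separate measurements of the tRNA. Since the aligner keeps unique best matches, reads that lie within identical copies may be missing here. How far the listed reads stand for all of the initiator tRNA was not tested.

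Other initiator cytosines were mostly converted in WT skin. Pooled over all initiator cytosines but C48, 2.54%, 3.60%, 4.16% and 5.38% of reads were unconverted in WT. In the NSun2 -/- libraries it was 16.2%, 17.0%, 2.58% and 15.3%. NSun2 -/- replicate 3 lay among the WT libraries, and the other 3 NSun2 -/- libraries lay above them. At the initiator cytosines C3 to C27 alone, 5′ of the anticodon loop, the share was 5.36%, 9.33%, 14.4% and 17.7% in WT. In NSun2 -/- skin it was 23.0%, 25.3%, 3.52% and 22.4%. The pool is weighted by reads. These cytosines held 989 of its 15643 reads in WT replicate 1 and 3451 of 18524 in NSun2 -/- replicate 1. The part of this mix in the pooled values was not tested. C48 exceeded the other initiator cytosines by 1.22, 2.58 and 7.67 percentage points in NSun2 -/- replicates 1, 2 and 4, but by 37.8 points in replicate 3. In WT the excess was between 92.5 and 96.4 points. Whether the unconverted reads at C48 in NSun2 -/- skin are m5C was not tested.

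The same libraries differed at cytosines in the 5′ part of all tRNA genes, ahead of the anticodon loop. These had 0.638%, 0.843%, 0.623% and 1.22% unconverted reads in WT. The NSun2 -/- libraries had 3.39%, 9.35%, 0.557% and 2.17%, with replicate 3 the lowest. The part of conversion in the differences at initiator cytosines other than C48 was not tested. At C34, the wobble base of the anticodon, the 6 tested genes differed by between 7.76 and 19.9 points and 0 passed the threshold in edgeR or in limma, with 0 at an unadjusted p under 0.05 in edgeR.

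Of the 117 tested MetCAT cytosines other than C48, 113 (96.6%) were higher in the NSun2 -/- mean, beside 67.4% of all tested cytosines. Their differences ran from -2.17 to 28.7 points with a median of 9.34, beside a median of 1.13 over all. By edgeR, 0 MetCAT cytosines passed the threshold as higher, against 0.114% of all. By limma 0 passed, against 0.00896% of all. At an unadjusted edgeR p under 0.05, 29 (24.8%) were higher, against 2.17% of all. Without NSun2 -/- replicate 3, fewer cytosines could be tested, and edgeR called 7 of 81 MetCAT cytosines higher (8.64%), against 526 of 82884 over all (0.635%). The share called higher over all cytosines was 0.0133% without NSun2 -/- replicate 1 and 0.0291% without replicate 4. It was 0.0623%, 0.0839% and 0.0534% without WT replicates 1, 2 and 3.

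**Figure D2:**
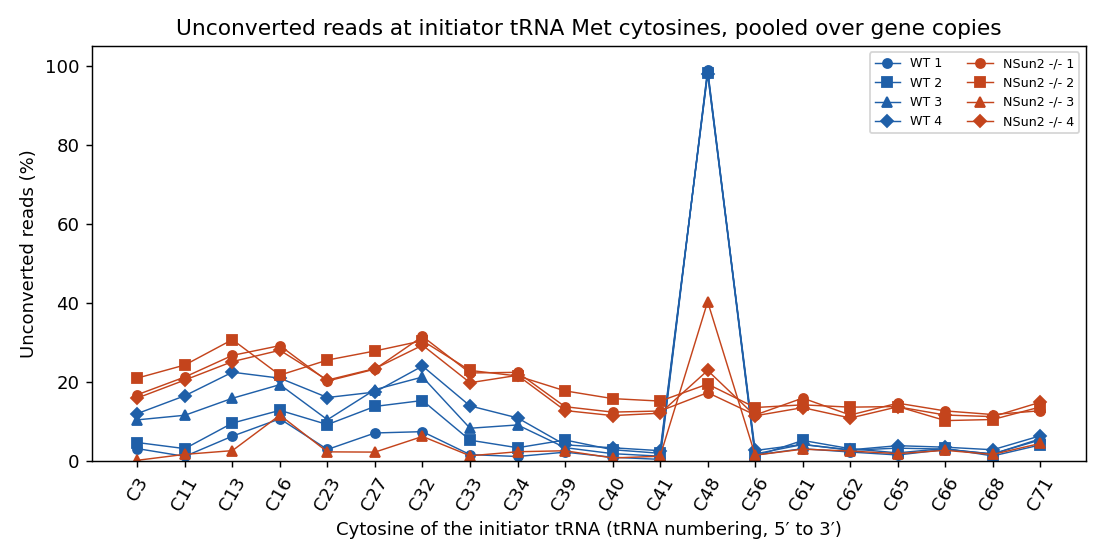
Unconverted reads in percent at each cytosine of the initiator tRNA, pooled over gene copies, with 1 line per library. At C48 the 4 WT libraries sit between 97.9% and 99.0% and the 4 NSun2 -/- libraries between 17.4% and 40.4%, and NSun2 -/- replicate 3 lies within or below the WT range at the other cytosines.

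Elongator cytosines were sparse, and the part of the aligner's limit to unique best matches in this was not tested. C48 of elongator genes was listed in 5 libraries. In 4 of them it rests on chr8.trna783-MetCAT alone, a locus within Gm20388, and only NSun2 -/- replicate 1 pools 3 genes, of which this one was at 80.9%. All of its reads were unconverted in WT replicate 3 (11 reads) and WT replicate 4 (28 reads), for which the Wilson intervals start at 74.1% and 87.9%. In NSun2 -/- skin it was at 81.5% (108 reads, interval 73.1 to 87.7), 64.3% (28 reads, 45.8 to 79.3) and 67.6% (37 reads, 51.5 to 80.4) in replicates 1, 2 and 4. The NSun2 -/- values were below both WT values, and their counting intervals overlap that of WT replicate 3 but not that of WT replicate 4.

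Elongator cytosines other than C48 were also largely unconverted, at 57.0% and 66.4% in WT replicates 3 and 4 and at 78.5%, 79.5% and 69.5% in NSun2 -/- replicates 1, 2 and 4. Elongator C48 exceeded these cytosines by 43.0 and 33.6 points in WT replicates 3 and 4. In NSun2 -/- replicates 1, 2 and 4 the difference was 2.97, -15.2 and -1.94 points. The elongator excess was smaller in these NSun2 -/- libraries than in WT replicates 3 and 4, but this order cannot show a loss at C48. All elongator C48 reads were unconverted in WT replicates 3 and 4, so the excess there was the highest possible. Other elongator cytosines were more unconverted in each of these NSun2 -/- libraries, so even a fully unconverted C48 would give a smaller excess. Whether the elongator excess changed as that of the initiator did was not tested.

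The initiator was below the elongator at C48 in every library with both, with differences of -1.29 and -2.07 points in WT and of -64.1, -44.8 and -44.6 points in NSun2 -/- skin. The difference between genotypes was -49.5 points in an exact two-sided permutation test over 10 assignments (p = 0.1, the smallest that 2 against 3 libraries can give; adjusted p = 0.3). The gap was larger in the 3 NSun2 -/- libraries with both values than in the 2 WT libraries, but this design cannot pass 0.05. Replicate 3, the NSun2 -/- library with the highest initiator C48, has no elongator value. The part of the unconverted reads at other elongator cytosines in this gap was not tested.

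For comparison, C48 of the GlyGCC family went from 93.6% to 44.2% and that of AspGTC from 90.6% to 32.2%. C49 of AspGTC went from 97.8% to 28.4%. C49 of GlyGCC went from 70.3% to 18.8% and C50 from 95.8% to 37.1%. C48 of TyrGTA was at 32.3% in WT and 15.2% in NSun2 -/- skin, and C50 at 9.37% and 14.0%. These are means over 4 libraries per genotype, and their difference from the initiator was not tested. At C48 of TyrGTA the groups overlap, with NSun2 -/- replicate 2 (28.6%) above WT replicate 3 (27.1%).

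The tRNA-seq libraries held between 17352126 and 36749727 counts. Counts were listed per read sequence and gene. The study describes distributing reads that match several genes among them. The counts of the most abundant initiator sequence, however, step by 9, the number of its copies in mm9. Counts were thus not taken as numbers of reads and carry no counting intervals. The initiator had 929669, 498999, 1077049 and 1178138 counts in WT and 1452475, 3950253, 2185089 and 895411 in NSun2 -/- skin. The elongator had 4528, 6318, 5173 and 5634 in WT and 5272, 3570, 3554 and 3111 in NSun2 -/- skin. Both forms were recovered as different kinds of reads. Of initiator counts, 98.2% in WT and 99.0% in NSun2 -/- skin were 5′ tRNA fragments, which start at the first nucleotide and are 25 to 40 nt long. Of elongator counts, 86.6% and 76.2% ended in the CCA tail of mature tRNA without covering the gene, and 0.581% and 2.26% were 5′ tRNA fragments.

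Gene names in these counts say little about the copy of origin. Of all MetCAT counts, 55.2% were listed under chr13.trna108-MetCAT, 32.1% under chr13.trna947-MetCAT and 12.3% under chr3.trna792-MetCAT, which share 1 sequence. chr13.trna108-MetCAT was among the bound genes with the lowest Pol III occupancy. Elongator counts were listed mostly under chr15.trna913-MetCAT (24358 counts) and chr13.trna999-MetCAT (10629 counts).

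5′ tRNA fragments ask whether more of the tRNA is found cleaved in NSun2 -/- skin. They end before C48, so they do not show whether the tRNA they came from was methylated. Initiator fragments had 50965, 27948, 43777 and 51834 CPM in WT, and 72197, 106862, 91501 and 50299 in NSun2 -/- skin. NSun2 -/- replicates 1, 2 and 3 exceeded all WT libraries, whereas replicate 4 lay within the WT range, so the groups overlap. Means were 43631 ± 11061 and 80215 ± 24472 (SD, n = 4 each). The log2 fold change was 0.77 (SE 0.22, edgeR adjusted p = 0.0178). Over all tRNA genes, reads with a CCA end had 3257392, 3272517, 2497389 and 2456417 counts in WT. In NSun2 -/- skin they had 1714322, 1053484, 1830512 and 1311014, fewer in every library than in any WT library. 5′ tRNA fragments of all genes had the most counts in NSun2 -/- replicate 2 (33123588). The part of this shift in the fragment values was not tested.

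Elongator fragments had 1.78, 1.498, 1.32 and 1.47 CPM in WT, and 3.62, 4.08, 2.45 and 3.25 in NSun2 -/- skin. The groups did not overlap, but the values rest on 32, 26, 32 and 33 counts in WT and 72, 150, 58 and 57 in NSun2 -/- skin, from 3 distinct sequences. Of these sequences 1 matches mm9 exactly, with 32.4% of elongator fragments in the mean of 8 libraries, and the other 2 were placed with 1 mismatch, so their gene of origin is uncertain. Means were 1.52 ± 0.194 and 3.35 ± 0.690 (SD, n = 4 each). The log2 fold change was 1.07 (SE 0.31, edgeR adjusted p = 0.0178), and with exact matches alone it was 1.24 (SE 0.46, edgeR adjusted p = 0.0418). Exact matches had 9, 12, 6 and 12 counts in WT and 15, 69, 18 and 18 in NSun2 -/- skin. They step by 3, so the number of reads may be smaller still. Both fold changes thus rest on few counts.

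Both forms were thus among the families whose 5′ tRNA fragments were higher in NSun2 -/- skin, which were 20.9% of the 43 families tested. Another 10 families were lower. The elongator ranked 4th and the initiator 9th by log2 fold change, beside a median of -0.16 over all families. Scaling by all tRNA counts in place of TMM moved that median to -0.06, and DESeq2 moved it to -0.07. Under these scalings the initiator was at 0.88 and 0.86 and the elongator at 1.15 and 1.17. Without WT replicate 3 both calls were lost, at a log2 fold change of 0.77 (edgeR adjusted p = 0.0515) for the initiator and 1.00 (edgeR adjusted p = 0.0561) for the elongator.

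In abundance by listed counts both forms stood at opposite ends. These counts may be multiplied by gene copies, to an extent that can differ between families. Initiator fragments ranked 3rd among the families, with 5.64% ± 1.34 (SD, n = 4) of all 5′ tRNA fragments in WT libraries, and with 9.58% ± 2.57 (SD, n = 4) in NSun2 -/- libraries, while the elongator ranked 42nd of 43. GlyGCC, the most abundant family, had a log2 fold change of -0.16, AspGTC one of -0.93 (edgeR adjusted p = 0.0813) and TyrGTA one of 0.36, none past the threshold.

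The log2 ratio of initiator to elongator fragments, in which library size cancels, was 14.80, 14.19, 15.02 and 15.10 in WT. In NSun2 -/- skin it was 14.28, 14.68, 15.19 and 13.92. The level of the ratio may also reflect multiplication of counts by gene copies. The groups overlap, and their means differed by -0.26 (exact two-sided permutation test, 70 assignments, p = 0.486, adjusted p = 0.571). The SD of this ratio between libraries was 0.41 in WT and 0.54 in NSun2 -/- skin, and a difference between both forms in the change of fragments was not detected.

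**Figure D3:**
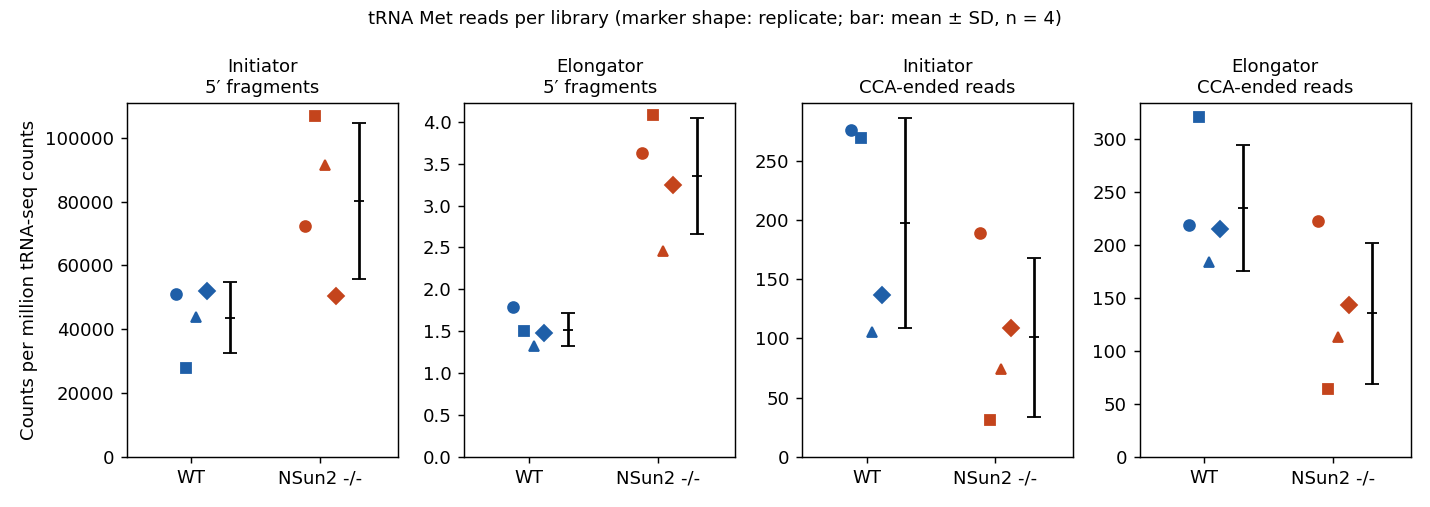
Abundance of 5′ tRNA fragments and of CCA-ended reads in tRNA-seq, in CPM, with 1 point per library and bars for the mean ± SD of 4 libraries. Elongator fragments lie between 1.32 and 1.78 in WT and between 2.45 and 4.08 in NSun2 -/- skin, whereas initiator fragments overlap at NSun2 -/- replicate 4 (50299).

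The fragments mostly ended at 1 position of the anticodon loop, 5′ of the anticodon and with position 33 between. Position 32 was the end of 95.2% ± 1.31 (SD, n = 4) of initiator fragments from WT libraries and of 96.3% ± 0.541 (SD, n = 4) of those from NSun2 -/- libraries, which was not tested. The 3 most abundant initiator fragments are shown, and capitals mark the base that differs from the gene.

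initiator fragment 1: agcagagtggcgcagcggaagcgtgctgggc
initiator fragment 2: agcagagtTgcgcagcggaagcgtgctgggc
initiator fragment 3: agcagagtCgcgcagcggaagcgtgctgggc

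The unchanged initiator fragment made up 58.5% of initiator fragments in the mean of 8 libraries, the G9T fragment 20.4% and the G9C fragment 7.08%. Position 9 is a known site of 1-methylguanosine in tRNAs, a base at which reverse transcriptase misreads. Mismatches at position 9 were in 37.5%, 35.7%, 35.8% and 35.7% of initiator fragments in WT and in between 35.4% and 36.1% in the 4 NSun2 -/- libraries. The groups overlap, and WT replicate 1 was the highest. CCA-ended initiator reads that cover position 9, with 1471 counts over all libraries, varied far more. They had a mismatch there in 19.3% to 44.6% of counts in WT and in 0%, 92.9%, 45.4% and 11.7% in NSun2 -/- skin. For mismatches at positions 9, 26 and 58, CCA-ended reads include mature tRNA, with reads over at least 90% of the gene. Elsewhere mature tRNA is counted apart.

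Position 26 is a known site of dimethylguanosine. CCA-ended elongator reads that cover position 26 had a mismatch there in 96.5% of counts in WT and 95.3% in NSun2 -/- skin, from 1153 counts over all libraries. In elongator 5′ tRNA fragments, with 460 counts, the share was lower, with 16.9% ± 13.6 (SD, n = 4) for WT and 10.3% ± 7.28 (SD, n = 4) for NSun2 -/- libraries. Initiator fragments had one in 1.84% and 1.55%, and CCA-ended initiator reads in 0 of 2068 counts.

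Position 58 is a known site of 1-methyladenosine. CCA-ended initiator reads had a mismatch there in 91.3% ± 0.800 of counts in WT and 91.0% ± 2.62 in NSun2 -/- skin. For the elongator it was 79.2% ± 1.41 and 79.2% ± 0.971 (SD, n = 4 each). These differences between genotypes are within the spread of the libraries and were not tested.

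CCA-ended reads and mature tRNAs were the least abundant initiator reads. CCA-ended initiator reads had 277, 270, 106 and 137 CPM in WT, and 190, 31.05, 74.5 and 109 in NSun2 -/- skin. For the elongator they were 219, 320, 184 and 215 in WT and 222, 63.6, 112 and 143 in NSun2 -/- skin. The groups overlap for both forms, with NSun2 -/- replicate 2 the lowest of all libraries.

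Relative to other families these reads gave log2 fold changes of 0.23 for the initiator (SE 0.23, edgeR adjusted p = 0.525) and 0.47 for the elongator (SE 0.21, edgeR adjusted p = 0.113). By edgeR neither form was among the families called higher, which were 11.1% of 45, and 16 of the 45 had an unadjusted p under 0.05. The elongator was one of these (edgeR unadjusted p = 0.0388) and the initiator was not. The direction depends on the scaling. With all tRNA counts in place of TMM the median of all families moved from 0.19 to -1.17. The initiator moved to -0.97 and the elongator to -0.79. That scaling called 0 families higher and 17 lower, against 5 higher and 5 lower with TMM. DESeq2 gave a median of 0.10 and called the elongator, at 0.39 (DESeq2 adjusted p = 0.0317). By DESeq2, 7 of the 45 families were called higher and 9 lower. Without NSun2 -/- replicate 1 the initiator turned to -0.13.

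The log2 ratio of initiator to elongator CCA-ended reads was 0.34, -0.25, -0.80 and -0.65 in WT and -0.23, -1.03, -0.59 and -0.39 in NSun2 -/- skin. WT replicate 1 was the highest and the groups overlap. The means differed by -0.22 (exact two-sided permutation test, p = 0.571, adjusted p = 0.571). Without WT replicate 1 the difference was 0.000666.

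Mature tRNA, counted from reads with a CCA end over at least 90% of the gene, was seen for the initiator alone. Initiator mature counts were 145, 229, 282 and 271 in WT and 57, 85, 163 and 239 in NSun2 -/- skin, and elongator mature counts were 0 in all 8 libraries. As CPM they were 8.08, 13.2, 11.6 and 12.1 in WT and 2.87, 2.31, 6.89 and 13.6 in NSun2 -/- skin. NSun2 -/- replicates 1, 2 and 3 were below all WT libraries and replicate 4 was above them.

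Relative to other families the log2 fold change was -0.20 (SE 0.61, edgeR adjusted p = 0.970). The initiator ranked 9th of 17 families, so that the median of all families was its own value. Scaled by all tRNA counts the median became -0.94, with the initiator at -0.81. With DESeq2 it became 0.03, with the initiator at -0.01. edgeR called 0% of these families, with 4 at an unadjusted p under 0.05, and DESeq2 called 0. Without NSun2 -/- replicate 1 the initiator was at 0.064. Of the 3 MetCAT genes tested singly, 0 passed in edgeR, against 6.67% of 45 genes, with 0 at an unadjusted p under 0.05. By DESeq2 0 passed, against 6 of 45 genes.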

How the data were processed

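Members and lists were chosen with earlier results of these data known. For bisulphite libraries, the authors aligned reads with Bismark (0.7.6 in the submitters' processing notes) and deposited counts of unconverted and converted reads and their percent per cytosine. For tRNA-seq and Pol III ChIP-seq, the authors aligned with Bowtie to mm9 and deposited counts that were not scaled. Bisulphite positions were compared with mm9, in which all fall on cytosines of either strand.

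Genes were placed by the study's coordinates (13) or by sequence (6), and reads with at most 4 mismatches, which placed 99.8% of tRNA-seq counts. Gene annotation was GENCODE on mm9. Families and cytosines were tested with edgeR 4.0.16 in R 4.3.3 (quasi-likelihood, TMM, filterByExpr, Benjamini-Hochberg over all features), with DESeq2 1.42.0 and limma 3.58.1 as alternatives. Cytosines entered with library and genotype by conversion as terms. Python 3.11.15 with pandas 2.3.3, scipy 1.17.1 and pysam 0.24.0 was used for the rest. Scripts were tested on simulated data. Testing of CCA-ended reads, and counts divided by copies, were chosen after seeing the data.

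Named were all bound MetCAT genes, tested cytosines at positions 34, 38 and 48 to 50 and any other past the threshold, the 3 most abundant 5′ tRNA fragments of the initiator (the same rule for the elongator is not reported here), mismatches at positions 9, 26 and 58, and 3 families for comparison (GlyGCC, AspGTC, TyrGTA). Singled out after their values were seen were unbound genes near the threshold and the distances to genes. Counts step by 9 with a remainder of 8 for the main initiator fragment, which has 9 copies in mm9. This may come from multiplication by copies, which was not tested. The elongator fragment that matches mm9 has 4 copies but steps by 3, and is a multiple of 4 in 2 of 8 libraries. Dividing by 4 copies may therefore not give numbers of reads.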

Additional observations from a re-analysis of the deposited data

Results flagged for a closer look

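Groups of 4 libraries were searched for 1 library far from the other 3. Of 51 groups, 5 had one, and chance gives about 1 in 20.

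In NSun2 -/- bisulphite replicate 3, 2.58% of reads were unconverted over all initiator cytosines but C48, while the other NSun2 -/- libraries were between 15.3% and 17.0%. At initiator C34 it was 2.44%, against 21.6% to 22.5% in the others. At initiator C32 it was 6.30%, against 29.4% to 31.6%. These 3 values come from 1 library.

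In NSun2 -/- tRNA-seq replicate 2, 4.20% of elongator counts were 5′ tRNA fragments, against 1.37% to 1.83% in the other NSun2 -/- libraries. In WT tRNA-seq replicate 1, 37.5% of initiator 5′ tRNA fragments had a mismatch at position 9, against 35.7% to 35.8% in the other WT libraries.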

How the results depend on the processing

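Alternatives were run for the values that answer a comparison (single C48 and CCA-ended reads aside, fragments divided by copies included). Of these alternatives, 97 kept their side of the threshold, moved by less than the spread between libraries or, for counts, stayed within 1.5-fold. Another 2 lost the threshold, 1 tested value changed sign and 1 count moved. The untested Pol III difference in log2 ratio, -0.03, was -0.22 with WT replicate 1 alone and changed sign, to 0.16, with WT replicate 2 alone, while both WT libraries differed by 0.38. Leaving out 1 library, initiator 5′ tRNA fragments ranged from 0.62 to 1.12 (log2; edgeR adjusted p 0.00586 to 0.0515) and elongator fragments from 0.99 to 1.39 (edgeR adjusted p 0.00456 to 0.0561). Without WT replicate 3 both lost the threshold, at 0.77 and 1.00; the cause was not tested. Initiator mature tRNA ranged from -0.41 to 0.064 (without NSun2 -/- replicate 1, the opposite sign), the log2 ratio of initiator to elongator fragments from -0.49 to -0.06, and their C48 difference from -52.7 to -43.0 points. MetCAT cytosines called lower ranged from 5 to 6, which were all C48 tested in each setting, and those called higher from 0 to 7. MetCAT genes called in mature reads stayed at 0.

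Among results added after seeing the data, CCA-ended reads ranged from -0.13 to 0.31 (initiator) and 0.17 to 0.54 (elongator). Scaling by all tRNA counts turned them to -0.97 and -0.79. DESeq2 moved the elongator past the threshold at 0.39, with 7 of 45 families called higher. The CCA ratio, from -0.38 up, turned to 0.000666 without WT replicate 1. Fragments divided by copies in mm9 (9 and 4) gave 0.79 and 1.11.

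Animals were separate and replicate numbers did not pair them: same-number correlations were -0.53 to 0.15 in tRNA-seq and -0.14 to 0.31 in bisulphite data, and 1 of 4 WT libraries correlated best with its own number in each. With the replicate block, fragments were 0.77 and 1.03 (edgeR adjusted p = 0.0443 for both), mature initiator -0.33, and 6 C48 were lower.

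Elongator mature reads were 0, so their fold change and ratio could not be computed. The elongator C48 could not be tested with 30 reads, since no WT library has them, or with the block, since both genotypes share only replicate 4.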
